A study of Mus musculus with 38 samples.

Results

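The Nlrp4, Nlrp9 and Nlrp14 genes of the mouse were followed on and off polysomes through 6 stages from the oocyte to the two-cell embryo. The members were found by symbol, as every row of the expression table named Nlrp4a, Nlrp4b, Nlrp4c, Nlrp4e, Nlrp4f, Nlrp4g, Nlrp9a, Nlrp9b, Nlrp9c or Nlrp14, which gave 10 of the 23125 genes listed. Cytoplasm was separated on sucrose gradients into 10 fractions, of which the lighter 5 were pooled as the non-polysome RNA and the heavier 5 as the polysome-occupied RNA, and both pools were sequenced. Each stage was a biological triplicate in each fraction, so that 36 libraries in 12 groups were compared.

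All animals were wild type ICR mice of at least 6 weeks, and no group carried a transgene or a mutation. GV oocytes, arrested in prophase I with the germinal vesicle intact, were collected at 0 h, and MII oocytes were taken after 12 h of maturation in M16 medium. Zygotes came from mated females, 16 h after hCG and mating; those of the interphase group were taken when isolated, and embryos of the later stages were cultured in KSOM medium. Embryos of zygote M and two-cell M were held in M-phase with 10 µM nocodazole, a drug that depolymerises microtubules, so that M-phase, the drug and the longer culture cannot be told apart in these 2 groups. Every library came from a pool of oocytes or embryos, and fewer expressing cells in a pool and less RNA per cell cannot be told apart.

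NLRP proteins are members of the NOD-like receptor family, built from a pyrin domain, a nucleotide-binding NACHT domain and leucine-rich repeats. Several somatic relatives, such as NLRP3, assemble inflammasomes that activate caspase-1, whereas the genes described here belong to a germline branch whose RNAs accumulate in the growing oocyte and are cleared after fertilisation. In rodents this branch expanded by tandem duplication. An oocyte does not transcribe after it has reached full size, so that the use of these stored RNAs up to the activation of the embryonic genome depends on their loading on ribosomes and on their removal.

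Of the 10 genes, 8 lay on chromosome 7 in the GRCm38 annotation of the table. Nlrp9c (chr7:26322473-26403700, minus strand), Nlrp4a (chr7:26435113-26476142, plus strand) and Nlrp9a (chr7:26535023-26575615, plus strand) were neighbours. Nlrp4c (chr7:6045161-6105150), Nlrp4b (chr7:10687789-10730168), Nlrp9b (chr7:19991465-20073306), Nlrp4e (chr7:23301192-23362277) and Nlrp14 (chr7:107166990-107198102) were all on the plus strand of the same chromosome. Nlrp4f was on the minus strand of chromosome 13 (chr13:65177111-65205977), and Nlrp4g, annotated as a transcribed unprocessed pseudogene, was on the plus strand of chromosome 9 (chr9:124348872-124356970).

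Members within the Nlrp4 and Nlrp9 groups were close relatives in sequence, which bears on how their reads could be assigned. Among the 9 members with an annotated coding sequence, Nlrp4c and Nlrp4e were 93.6% identical, Nlrp9a and Nlrp9c 87.5%, and Nlrp9a and Nlrp9b 83.9%. Between Nlrp4 and Nlrp9 genes identity was 52.2% to 56.9%, and Nlrp14 had 50.6% to 54.7% identity to the others. Over 75-base windows, 20.1% of those in the Nlrp4e transcripts were also found in another gene, including Gm8486 and Gm16443, so that the level of Nlrp4e is uncertain. For the other members this share ran from 0% for Nlrp4b and Nlrp14 to 4.25% for Nlrp9b.

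The 3′ ends are shown because signals there govern the polyadenylation of stored oocyte RNA, and because they show the kinship of the members at the ends of their transcripts. The polyadenylation hexamer AATAAA or ATTAAA was searched in the last 50 bases of 1 GENCODE vM21 transcript of each gene, and was found in 7 of the 10 members, against 72.4% of 21792 genes. Each line gives the 30 bases that end with the hexamer, 5′ to 3′ on the transcript, with the hexamer in capitals and, where present in this window, the cytoplasmic polyadenylation element TTTTAT in capitals as well.
Nlrp4b: actattgctgtttttctgttttgtATTAAA
Nlrp4c: gctgttttgtgttTTTTATtaaatAATAAA
Nlrp4f: aattgctgctgttttgtgTTTTATATTAAA
Nlrp4e: tctacactggtatcttaagcatcgAATAAA
Nlrp9a: aatgtttatactacaagcacattcAATAAA
Nlrp9b: aatgtttatattacaagcacatttAATAAA
Nlrp9c: aatgtttatattacaagcacattaAATAAA
The 3 Nlrp9 genes shared nearly the whole window, while Nlrp4b, Nlrp4c and Nlrp4f shared the run ctgttttgt and Nlrp4e did not hold it. An element TTTTAT or TTTTAAT stood in the last 100 bases of Nlrp4a, Nlrp4c and Nlrp4f, and 14.8% of the 21792 genes held one. For Nlrp4a, Nlrp4g and Nlrp14 these letters of the hexamer were not in the last 50 bases of the transcript used. A match is a description of letters and not of a working site.

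Promoters were printed for the members whose upstream sequences aligned best. RefSeq promoter windows on GRCm38.p6, from 250 bases before to 50 bases after a start, matched 8 of the 10 members by symbol. Those of Nlrp9a and Nlrp9c were 85.1% identical, and the second listed start of Nlrp4a was 75.3% identical to Nlrp4b. The 150 bases before each start are given on the strand of the gene, with the CCAAT box, searched as CCAAT on both strands, in capitals.
Nlrp9a, chr7:26534873-26535022, plus strand: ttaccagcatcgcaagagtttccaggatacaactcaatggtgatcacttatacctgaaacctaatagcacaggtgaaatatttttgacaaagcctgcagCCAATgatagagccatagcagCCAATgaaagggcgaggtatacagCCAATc
Nlrp9c, chr7:26403701-26403850, minus strand: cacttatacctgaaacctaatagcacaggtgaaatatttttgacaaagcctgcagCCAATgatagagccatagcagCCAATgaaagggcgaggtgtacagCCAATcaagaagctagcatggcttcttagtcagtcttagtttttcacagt
Nlrp4c, chr7:6045011-6045160, plus strand: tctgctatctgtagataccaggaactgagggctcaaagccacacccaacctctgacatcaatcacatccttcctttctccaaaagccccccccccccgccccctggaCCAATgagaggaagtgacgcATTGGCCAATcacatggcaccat
Nlrp4b, chr7:10687643-10687792, plus strand: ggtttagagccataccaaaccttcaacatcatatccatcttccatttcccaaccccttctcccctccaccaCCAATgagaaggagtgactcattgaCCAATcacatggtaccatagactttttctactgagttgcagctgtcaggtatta
Nlrp4a, chr7:26435464-26435613, plus strand: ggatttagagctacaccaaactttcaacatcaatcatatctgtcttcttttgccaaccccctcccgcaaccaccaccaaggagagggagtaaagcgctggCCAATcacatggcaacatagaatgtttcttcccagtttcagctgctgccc
Within the full windows Nlrp9a, Nlrp9c and Nlrp4c held 3 copies each, and 3 or more were found in 3.37% of the 32851 promoters listed. Nlrp4b held 2, Nlrp4a at this start and Nlrp4e held 1, and these letters were not in the windows of Nlrp4f and Nlrp9b. At least 1 copy was present in 37.4% of all promoters.

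Values were FPKM, the fragments per kilobase of transcript scaled to the mapped total of the library, with 0.01 as the lowest value of every library, and a gene at 0.01 is called listed at the floor. The two-cell M libraries stood apart from the rest in both fractions: they had the fewest genes above 0.1 FPKM, within a range of 5140 to 10525 over the 36 libraries. Depth is unknown, but the steps between low values placed the libraries within 2.40-fold of each other in relative depth, with a two-cell M polysome library lowest. The estimate for that library rested on 52 of the 1376 pairs compared, so that it is approximate. The sum of 8 oocyte markers, which include the zona pellucida genes, Gdf9 and Mos, was 2003 to 2441 FPKM in GV polysomes, 292 to 520 at zygote M, 273 to 327 at two-cell and 28.2 to 149 at two-cell M. Of 9 two-cell activation genes such as Zscan4d, all 9 had a mean of at least 1 FPKM in two-cell polysomes, 2 in GV polysomes and 5 in two-cell M polysomes. Their sum did not mark the stage, since it was 124 to 193 FPKM in two-cell, 10.3 to 136 in two-cell M and already 176 to 323 in GV polysomes, where Tcstv1 alone had 151 to 268. Cumulus and granulosa markers summed to at most 0.207 FPKM in GV polysomes and to 4.76 at most in MII polysomes. In the non-polysome fraction 1 MII library reached 23.6 and 1 two-cell library 20.5, nearly all of it Inha, and the part of these cells in the results was not tested.

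Genes were tested with limma on log2 FPKM over all 36 libraries, and were called at a Benjamini-Hochberg adjusted p under 0.05 with a log2 fold change beyond 1. Where groups are said not to overlap, this describes the libraries of that gene and is not a test. The share of all genes without such overlap was not counted. A gene was tested when its geometric mean reached 0.1 FPKM, which 7967 genes and 9 of the 10 members did. Nlrp4c was too low to be tested, with 0.0284, 0.01 and 0.161 FPKM in GV polysomes, a highest value of 0.329 in a GV non-polysome library, and all 6 two-cell M libraries listed at the floor.

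**Figure D1:**
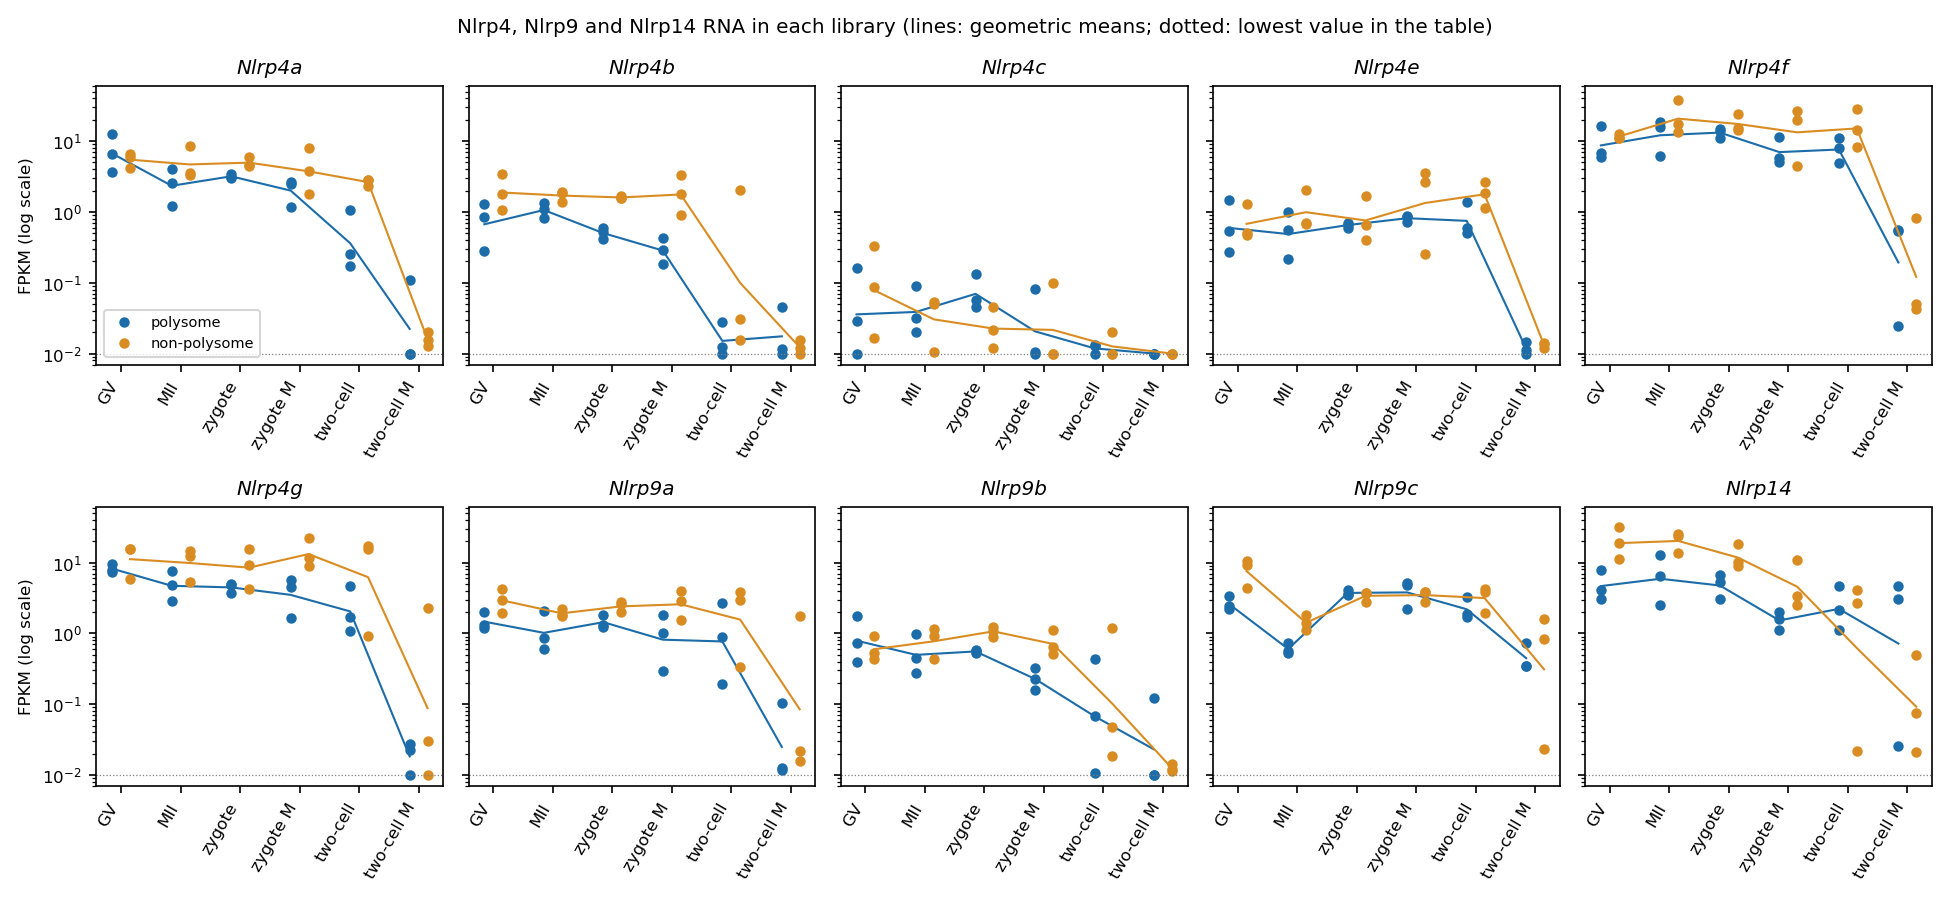
FPKM of each of the 10 genes by stage on a log10 axis, with polysome and non-polysome libraries as separate points and a line through the geometric mean of each triplicate. For most members the two-cell M libraries lie near the floor of 0.01 FPKM, while the 3 polysome libraries of Nlrp9c stay above 0.3.

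The summed level of the 10 genes was lowest at two-cell M in both fractions, as a description without a test. In polysomes the mean sum was 37.3 FPKM at GV (28.2 to 54.0 over the 3 libraries), 32.4 at MII, 33.0 in zygotes, 21.7 at zygote M, 18.2 at two-cell and 3.65 at two-cell M (0.997 to 6.41). In the non-polysome fraction the sums were higher at 5 of the 6 stages, at 64.8, 67.1, 54.6, 52.4, 41.9 and 2.75 FPKM in the same order.

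Nlrp4f, a member whose product is found with the subcortical maternal complex of the oocyte, had the highest mean polysome level at every stage up to two-cell, with 25.9% of the sum at GV, 41.5% at MII and 44.1% at two-cell. Its polysome libraries held 5.93, 6.84 and 16.2 FPKM at GV, 18.6, 15.6 and 6.10 at MII, 15.0, 14 and 10.9 in zygotes, and 11.1, 8.10 and 4.92 at two-cell. These groups overlapped, and no comparison made among these stages called it. At GV its lead rested on 1 library, since Nlrp4g, with 7.77, 9.65 and 7.39 FPKM, was above it in libraries A and B. By means it was followed there by Nlrp4g, Nlrp4a and Nlrp14, whose libraries overlapped, then by Nlrp9c, Nlrp9a, Nlrp9b, Nlrp4b and Nlrp4e, with Nlrp4c last.

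**Figure D2:**
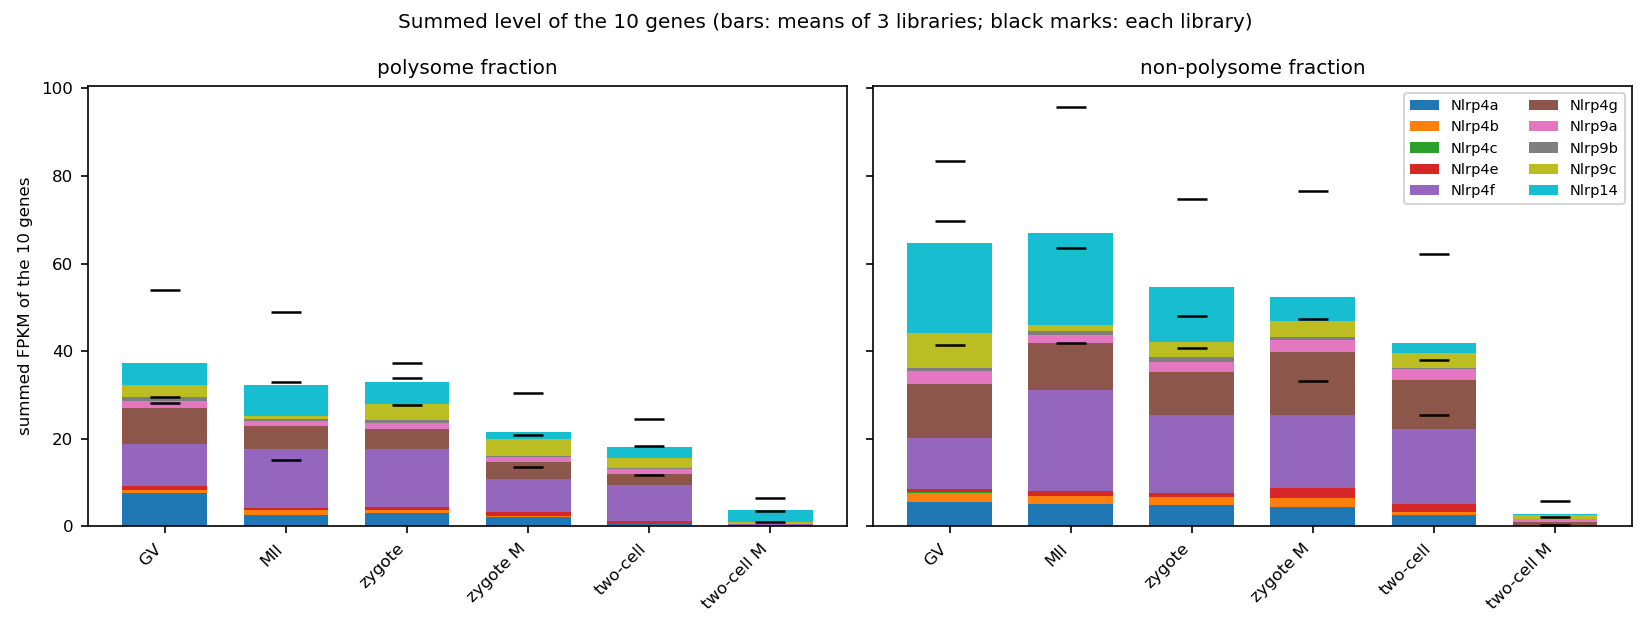
Summed FPKM of the 10 genes by stage and fraction, with 1 point for each library and the mean of the triplicate. Polysome means run from 37.3 at GV to 3.65 at two-cell M, and non-polysome means from 64.8 to 2.75.

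The first question was whether a member varied over the 6 stages at all. In polysomes 8 of the 9 members tested had a stage effect, where 62.9% of all genes tested did, and the exception was Nlrp14 (adjusted p = 0.394). In the non-polysome fraction all 9 members tested had one, against 78.3% of genes. Nlrp9a lost its non-polysome effect without two-cell M library A (adjusted p = 0.0989) or B (adjusted p = 0.082). After quantile normalization Nlrp4e (adjusted p = 0.0521), Nlrp9a (adjusted p = 0.216) and Nlrp9b (adjusted p = 0.242) lost theirs in polysomes. Off polysomes Nlrp9a (adjusted p = 0.447) and Nlrp9b (adjusted p = 0.842) lost theirs under that setting. With 1 FPKM added Nlrp4e (adjusted p = 0.225) and Nlrp9a (adjusted p = 0.113) lost theirs in polysomes. With the two-cell M libraries removed from both fractions, a choice made after seeing the data, 3 members kept a stage effect in polysomes (Nlrp4a, Nlrp4b and Nlrp9c; 41.3% of genes) and 3 in the non-polysome fraction (Nlrp4b, Nlrp9c and Nlrp14; 65.4% of genes). The other 5 members in polysomes and 6 off polysomes were called only with the two-cell M groups in the fit.

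Oocyte maturation, from GV to MII, is the step at which stored RNAs are loaded on or released from polysomes. None of the 9 members was called in polysomes between MII and GV, where 6.11% of genes were, and 1 had an unadjusted p under 0.05. That member was Nlrp9c, a gene of the Nlrp9 group. Its polysome libraries held 2.47, 2.19 and 3.35 FPKM at GV, and 0.733, 0.560 and 0.532 at MII, with no overlap. The difference was -2.12 on the log2 scale (SE 0.89, adjusted p = 0.185). Off polysomes its values were 9.31, 10.6 and 4.39 at GV and 1.80, 1.11 and 1.42 at MII, a difference of -2.42 (SE 0.89, adjusted p = 0.063). Both fractions had the lower values at MII and neither passed the threshold, and off polysomes 0 of 9 members were called, 1 at an unadjusted p under 0.05, beside 16.6% of genes called. In polysomes Nlrp9c did pass the threshold under 5 other settings: with 0.1 FPKM added (-1.95, adjusted p = 0.0355), with 1 FPKM added (-1.18, adjusted p = 0.0101), after quantile normalization (-3.27, adjusted p = 0.000262), with only the libraries of the 2 groups (adjusted p = 0.0115) and without the two-cell M libraries (adjusted p = 0.00213). Nlrp4a was called with 1 FPKM added (-1.18, adjusted p = 0.0276). The median difference of the 9 members in polysomes was -0.52, and that of all genes 0.18. Nlrp14, reported as needed in the egg for cleavage, held 4.15, 3.08 and 7.92 FPKM at GV and 12.6, 6.48 and 2.54 at MII, so that its groups overlapped.

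Nlrp9c was also the member called between the meiotic and the first mitotic M-phase in the fit of all libraries. Its zygote polysome libraries held 3.60, 3.50 and 4.13 FPKM and its zygote M libraries 5.12, 2.19 and 4.87, all above those of MII. MII against zygote M gave -2.66 (SE 0.89, adjusted p = 0.0492), the call of 1 member, lower at MII, where 3.4% of genes were lower. This call was lost when any of the 6 libraries of the comparison was left out, with no filter on low values (adjusted p = 0.0707) and with the replicate letter as a block (adjusted p = 0.0641). With only the libraries of the 2 groups fitted, Nlrp4b (1.90, adjusted p = 0.0205) and Nlrp14 (1.96, adjusted p = 0.0367) were called too, both higher at MII.

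Between zygote M and zygote 0 of 9 passed the threshold in polysomes, 0 had an unadjusted p under 0.05, and 5.75% of genes were called. The median of the members was -0.82, beside -0.43 for all genes. Nlrp9b held 0.557, 0.529 and 0.588 FPKM in zygotes and 0.324, 0.160 and 0.229 at zygote M, and these groups did not overlap. Nlrp14 held 6.58, 5.27 and 3.08 in zygotes and 1.99, 1.12 and 1.59 at zygote M, again without overlap (difference -1.64, SE 1.53, adjusted p = 0.753). With only the libraries of the 2 groups fitted, both Nlrp14 (-1.64, adjusted p = 0.0156) and Nlrp9b (-1.29, adjusted p = 0.0425) were called lower at zygote M. GV against zygote likewise called 0 of 9 members, with 0 at an unadjusted p under 0.05 and 5.61% of genes called. The members' median of 0.02 lay beside -0.01 for all genes.

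From GV to two-cell, the interphase stage after cleavage, 3 of the 9 members were lower on polysomes at two-cell. Those higher at GV were Nlrp4a, Nlrp4b and Nlrp9b, where 12.3% of genes were called higher. Nlrp4a had 6.47, 3.70 and 12.5 FPKM at GV and 1.07, 0.172 and 0.255 at two-cell, a difference of 4.21 (SE 0.81, adjusted p = 0.000576), with no overlap. Nlrp4b had 0.847, 0.278 and 1.27 at GV and 0.0123, 0.0280 and 0.01 at two-cell, a difference of 5.47 (SE 1.09, adjusted p = 0.00077), its two-cell libraries lying at or close to the floor. Nlrp9b, known outside the ovary as a sensor of viral RNA in the gut epithelium, had 0.392, 0.722 and 1.75 at GV and 0.0106, 0.0676 and 0.433 at two-cell, and the groups overlapped. Its difference was 3.55 (SE 1.19, adjusted p = 0.0393), and it was called in 2 of the 6 fits that left out 1 library of the comparison, in which it ranged from 2.21 to 4.88. The low two-cell values made these differences depend on the value added: with 0.1 FPKM added they were 3.81 for Nlrp4a, 2.76 for Nlrp4b and 2.08 for Nlrp9b, all called, and with 1 FPKM added 2.43, 0.78 and 0.70, of which only that of Nlrp4a was called. Nlrp9b was not called either after quantile normalization (2.12, adjusted p = 0.108), with no filter (adjusted p = 0.0588) or with only the libraries of the 2 groups (adjusted p = 0.124). The median difference of the members was 1.07 and that of all genes 0.85. The oocyte marker sum, 273 to 327 FPKM at two-cell against 2003 to 2441 at GV, moved with these members, and its part in the result was not tested.

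Among the members not called, Nlrp4e, whose depletion has been reported to stop cleavage, held 0.269, 0.537 and 1.46 FPKM at GV and 1.39, 0.598 and 0.503 at two-cell (difference -0.33, 95% interval -2.08 to 1.42). For Nlrp4f the difference was 0.19, with an interval from -1.85 to 2.23. Off polysomes, GV against two-cell called Nlrp4b (4.24, SE 1.09, adjusted p = 0.00395) and Nlrp14 (4.91, SE 1.53, adjusted p = 0.0161) as higher, 2 of 9 members beside 19.6% of genes. Nlrp4b at two-cell was split there, with 0.0310, 2.02 and 0.0157 FPKM. Nlrp14 off polysomes held 18.7, 31.9 and 11.2 at GV, 10.1, 18.5 and 8.85 in zygotes and 0.0218, 2.69 and 4.15 at two-cell. Without two-cell library A, the one near the floor, its difference was 2.49 and not called (adjusted p = 0.193), nor was it called without GV library B (4.53, adjusted p = 0.0544). Nlrp9b was called without two-cell library B (4.34, adjusted p = 0.00453).

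At the second embryonic M-phase, in polysomes 6 of the 9 members were lower at two-cell M than at two-cell, namely Nlrp4a, Nlrp4e, Nlrp4f, Nlrp4g, Nlrp9a and Nlrp9c, where 28.1% of all genes were lower. In this comparison the median of all genes was itself -1.17, so that the called members are also given relative to it, and the median of the 9 members was -4.02.

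Nlrp4g had 1.69, 4.67 and 1.08 FPKM at two-cell and 0.0227, 0.0271 and 0.01 at two-cell M, a difference of -6.80 (SE 1.23, adjusted p = 0.000104), or -5.64 relative to all genes. Nlrp4e went from the two-cell values above to 0.01, 0.0111 and 0.0144, a difference of -6.00 (SE 0.86, adjusted p = 4.85e-06) and of -4.83 relative to all genes. Nlrp4f had 0.0243, 0.534 and 0.556 at two-cell M, a difference of -5.30 (SE 0.99, adjusted p = 0.000151) and of -4.14 relative to all genes. In these 3 genes, as in the other called members described next, every two-cell M library lay below every two-cell library.

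Nlrp9a held 2.65, 0.887 and 0.195 FPKM at two-cell and 0.0125, 0.0117 and 0.106 at two-cell M (difference -4.95, SE 1.26, adjusted p = 0.00294), or -3.78 relative to all genes. Nlrp4a held 0.01, 0.01 and 0.111 at two-cell M (difference -4.02, SE 0.81, adjusted p = 0.000359), or -2.85 relative to all genes. Nlrp9c went from 1.88, 1.70 and 3.31 at two-cell to 0.350, 0.346 and 0.739 at two-cell M. Its difference of -2.29 (SE 0.89, adjusted p = 0.0455) was -1.13 relative to all genes, and it stayed called in 1 of the 6 fits that left out 1 library of the comparison, with values from -2.66 to -2.0. Nlrp9c was not called with the replicate letter as a block (adjusted p = 0.0567) or with no filter (adjusted p = 0.072). Many of these two-cell M values are close to the floor, where a log2 difference depends on what a few reads are worth. With 0.1 FPKM added to every value the same 6 members were called, with smaller differences of -4.37 for Nlrp4f, -4.17 for Nlrp4g, -2.94 for Nlrp4e, -2.76 for Nlrp9a, -2.06 for Nlrp9c and -1.82 for Nlrp4a. With 1 FPKM added Nlrp4a (-0.48), Nlrp4e (-0.82) and Nlrp9a (-0.95) were not called, and Nlrp9c was (-1.14). Nlrp4a, Nlrp9a and Nlrp9c were not called after quantile normalization (-1.90, -2.04 and -1.37), nor with only the libraries of the 2 groups (adjusted p = 0.0853, 0.0604 and 0.0684). Nlrp4f and Nlrp4g were called under each of these settings.

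The other 3 members were not called. Nlrp4b (0.21, 95% interval -2.01 to 2.44) was already at or near the floor in two-cell polysomes, so that a lower level could not have been seen. Nlrp9b had 0.01, 0.01 and 0.122 FPKM at two-cell M (difference -1.56, adjusted p = 0.324). Nlrp14 had 4.65, 2.13 and 1.11 at two-cell and 3.09, 0.0256 and 4.70 at two-cell M, so that 2 of its 3 two-cell M libraries lay inside or above the two-cell range and 1 lay near the floor (difference -1.63, SE 1.53, adjusted p = 0.429). Over the 6 fits that left out 1 library, Nlrp9b ranged from -2.89 to -0.22. Nlrp14 ranged from -2.98 to 0.78 and so changed sign.

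Off polysomes 8 of the 9 members were called lower at the same step, where 28% of genes were lower, and the exception was Nlrp14 (adjusted p = 0.171). The median of all genes was itself -1.14 and that of the 9 members -4.21, and the differences below are not given relative to all genes. Many two-cell M values lay close to the floor here too, and these differences were not refitted with a value added or another normalization. Nlrp4a was the clearest, with 2.31, 2.79 and 2.86 FPKM at two-cell and 0.0200, 0.0157 and 0.0128 at two-cell M (difference -7.37, SE 0.81, adjusted p = 3.6e-08). Nlrp4g and Nlrp9a overlapped through 1 two-cell M library each, at 2.28 and 1.76 FPKM. For Nlrp4b, with 0.0310, 2.02 and 0.0157 FPKM at two-cell, and Nlrp9b, with 0.0183, 1.2 and 0.0477, library B carried the value: without it their differences of -3.02 each became -0.84 (adjusted p = 0.438) and -1.24 (adjusted p = 0.412). Over the 6 fits that left out 1 library, a check added after seeing the data, Nlrp4a, Nlrp4e, Nlrp4f and Nlrp4g were called in all 6, Nlrp9c in 5 (not without two-cell M library A, at -1.47), Nlrp4b and Nlrp9a in 3 and Nlrp9b in 2. Nlrp4b was not called without two-cell M library A or B, Nlrp9a without two-cell M library A or B or two-cell library C (-3.55 to -3.01), and Nlrp9b lost its call when any 1 of the 3 two-cell M libraries was left out. Nlrp14 was called without two-cell library A (-5.18, adjusted p = 0.00505). In both fractions, then, the two-cell M libraries were the low ones for most members. The lower oocyte marker sum and the smaller number of genes detected in these libraries moved with it, and their part in the result was not tested.

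**Figure D3:**
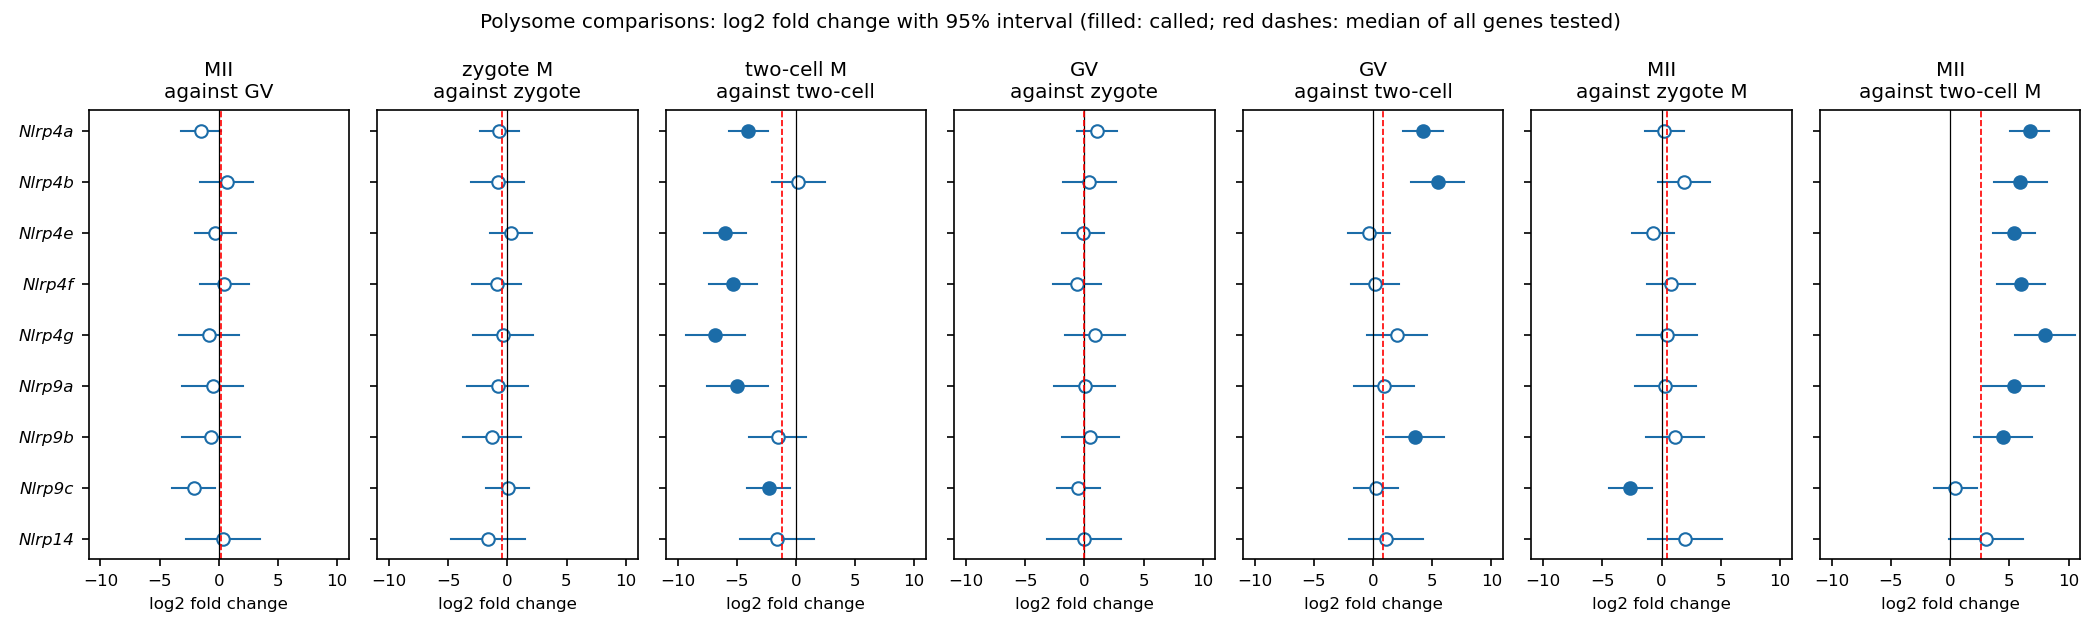
Log2 fold change in polysomes of each tested member (points, with 95% intervals from limma) in 7 comparisons, beside the median over all genes tested. In two-cell M against two-cell 6 members are called lower, and in MII against GV and zygote M against zygote none is called.

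Two-cell M was also set against meiotic M-phase. In polysomes 7 of the 9 members were higher at MII, where 45.2% of genes were higher, and their median was 5.38 beside 2.64 for all genes. The called differences ran from 4.43 for Nlrp9b (SE 1.19, adjusted p = 0.00288) to 8.0 for Nlrp4g (SE 1.23, adjusted p = 5.99e-06), whose MII libraries held 7.51, 4.81 and 2.89 FPKM. With 0.1 FPKM added the same 7 were called, at 2.13 to 5.33. With 1 FPKM added Nlrp4e (0.62), Nlrp9a (1.0) and Nlrp9b (0.56) were not called, nor were they after quantile normalization (1.04, 1.35 and 0.96). Nlrp4b and Nlrp9b were called here and not between two-cell M and interphase two-cell embryos. Nlrp9c, already low at MII, differed by 0.43 (95% interval -1.40 to 2.26), and after quantile normalization it was called as lower at MII (-2.17, adjusted p = 0.0041).

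Nlrp14 differed by 3.04 (SE 1.53, adjusted p = 0.0951), and the result hung on single libraries. It was called without two-cell M library A (4.09, adjusted p = 0.0482) or library C (4.39, adjusted p = 0.0273), and over the 6 fits that left out 1 library it ranged from 0.63 to 4.39. Off polysomes all 9 members were higher at MII, beside 52.1% of genes, with a median of 6.80 against 3.39 for all genes. Of these Nlrp9c (2.19, adjusted p = 0.0362) lost its call when any 1 of the 3 MII libraries was left out (2.01 to 2.36) and without two-cell M library A (0.31, adjusted p = 0.667), and the other 8 were called in all 6 such fits. This comparison shares its two-cell M libraries with the preceding one, and its MII libraries with the maturation comparison.

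Whether the members sat on polysomes was then asked within each stage. Of the 54 pairs of a tested member and a stage, 1 was called between polysome and non-polysome RNA, where 6.64% of all such pairs were, 2.72% as lower on polysomes. It was Nlrp4a at two-cell, lower on polysomes, with 1.07, 0.172 and 0.255 FPKM on polysomes against 2.31, 2.79 and 2.86 off them (difference -2.87, SE 0.81, adjusted p = 0.0164). All 3 polysome values lay below the non-polysome values, but the pair was no longer called without polysome library B (-2.34, adjusted p = 0.0888) or C (-2.62, adjusted p = 0.0618) of this stage.

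The other pairs did not pass the threshold. As a description, more members had the lower level on polysomes at each stage up to two-cell, and fewer at two-cell M. The polysome mean of the logs was the lower one in 7 of the 9 members at GV, 9 at MII, 8 in each of the zygote, zygote M and two-cell stages, and 3 at two-cell M. The median differences were -0.45, -1.0, -0.74, -1.58, -1.03 and 0.51, and those of all genes 0.56, -0.04, -0.24, 0.31, 0.28 and 0.37. FPKM is a share of its own library, so that these values are relative to the other RNAs of the fraction and not amounts. For Nlrp14 at GV the polysome values were 4.15, 3.08 and 7.92 and the non-polysome values 18.7, 31.9 and 11.2, which did not overlap, yet the difference of -2.01 had a 95% interval from -5.15 to 1.12 (adjusted p = 0.495). With 1 FPKM added this pair was called (-1.80, adjusted p = 0.0453). Nlrp9c at GV was called as lower on polysomes with 1 FPKM added, after quantile normalization and without the two-cell M libraries.

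A change of this balance with stage was tested as an interaction of stage and fraction. None of the 9 members was called, where 8.2% of genes were, and 0 had an unadjusted p under 0.05. The lowest unadjusted p was 0.0863, for Nlrp4a. Nlrp14 hung again on the one low library: without library B of the two-cell M polysomes it was called (adjusted p = 0.0359), with a polysome level above the non-polysome level at two-cell M by 5.37 on the log2 scale (adjusted p = 0.0086), whereas with all libraries this difference was 2.96 (SE 1.53, adjusted p = 0.208). The residual SD of the members on the log2 scale ran from 0.911 for Nlrp4a to 1.96 for Nlrp14, beside a median of 1.63 over all genes.

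**Figure D4:**
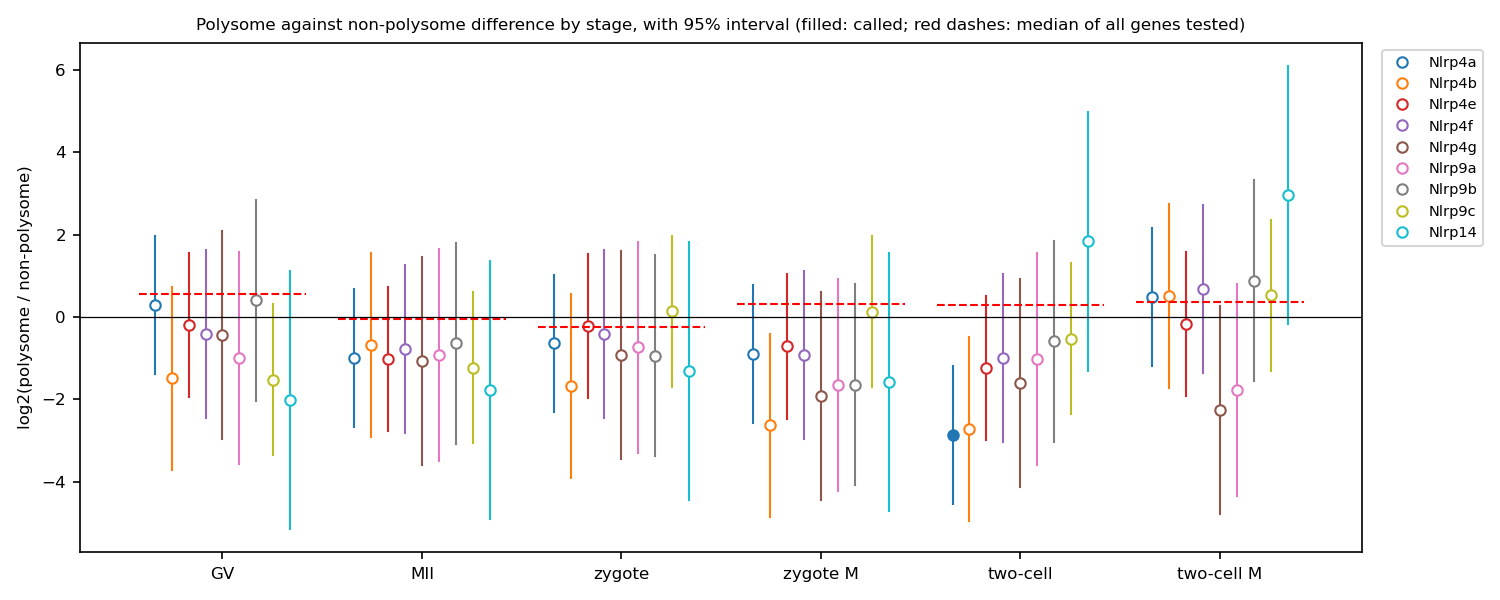
Log2 ratio of polysome to non-polysome FPKM of each tested member at each stage (points, with 95% intervals from limma) beside the median of all genes tested. Most members lie below 0 up to the two-cell stage, and the pair called is Nlrp4a at two-cell, at -2.87.

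Related genes were set beside the members as fixed lists. Of 7 subcortical maternal complex genes, which encode an oocyte assembly beneath the egg cortex needed for cleavage, 6 were tested. In polysomes 5 of these 6 had a stage effect (62.9% of all genes), and 2 had a stage by fraction interaction (8.2% of all genes). Between MII and GV 2 were lower at MII, Ooep at -3.84 and Zbed3 at -2.15 (6.11% of all genes called). Between two-cell M and two-cell 3 of the 6 were lower (28.1% of all genes). At GV 4 of the 6 were higher than at two-cell (12.3% of all genes), and at MII 4 were higher than at two-cell M (45.2% of all genes). Ooep, a KH-domain component of the complex, had polysome means of 3244 FPKM at GV and 228 at MII. At zygote M 2 were lower than in zygotes, Ooep at -2.99 and Padi6, the peptidylarginine deiminase of the oocyte lattices, at -3.17 (5.75% of all genes called). Nlrp5, the NLRP protein of this complex, had a polysome mean of 1.17 FPKM at GV, below the means of the 6 leading members.

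Of 21 other NLR genes 18 were listed and 3 were tested, and a tested gene of this list is also among those of the maternal complex. Nlrc3, an inhibitory NLR, was higher at two-cell M than at two-cell (3.16), with polysome means of 6.61 and 0.747 FPKM, whereas 6 of the 9 members were lower there. Nod2, a sensor of bacterial wall fragments, was lower there (-4.32), its two-cell M libraries lying at or near the floor. Of 8 inflammasome genes 4 were listed, none was tested, and their summed level stayed at or below 0.555 FPKM in polysomes and reached 3.53 in a two-cell non-polysome library, nearly all of it Il1b at 3.46.

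The profiles of the 9 tested members over the 12 group means were much alike, as a description without a test, since these points share the same libraries and the two-cell M groups weigh heavily in them. Pearson's r between members had a median of 0.83, and ran from 0.56 for Nlrp4b and Nlrp9c to 0.99 for Nlrp4g and Nlrp9a, which belong to different groups of the family. For the members with a coding sequence, r within Nlrp4 ran from 0.659 to 0.972, within Nlrp9 from 0.652 to 0.863, and between members of different groups from 0.562 to 0.954. Nlrp9a and Nlrp9c, the pair with the most similar promoters shown above, were not the pair with the most similar profiles. The genes outside the list closest to the members' mean profile were Nupl1 (r = 0.987), Nfxl1 (0.984), Cep41 (0.982), Chek1 (0.981) and 7420461P10Rik (0.981). Among all genes tested, the likeness of Nlrp9c to that mean profile stood at percentile 77.4 and that of Nlrp14 at 85.9, the lowest of the members. Each member is itself part of the mean profile, which raises its likeness to it, and the other genes are not.

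**Figure D5:**
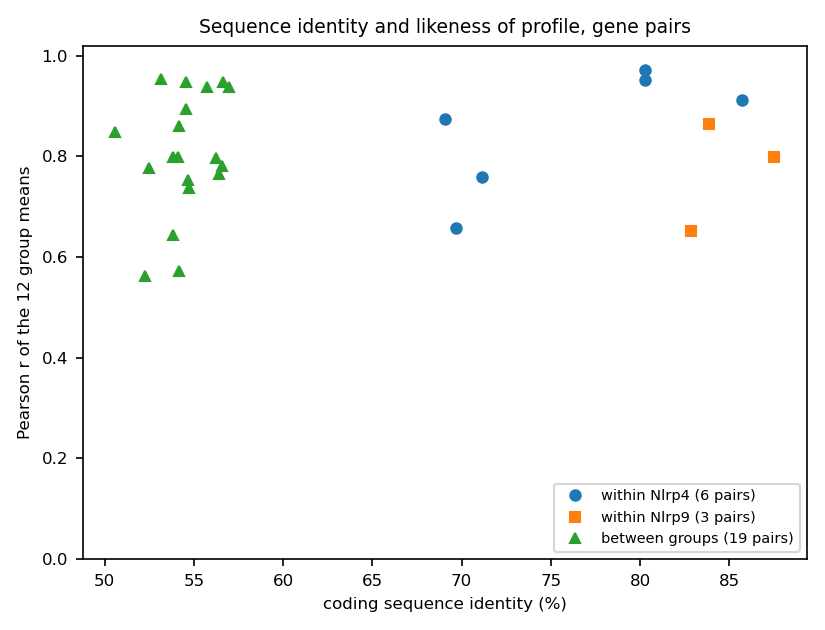
Pearson's r of the log2 profiles over 12 group means plotted against coding sequence identity in percent, with 1 point for each pair of tested members that have a coding sequence. Pairs between groups lie at the left, with those of Nlrp14 at 50.6% to 54.7% identity, and the values of r within Nlrp4, within Nlrp9 and between groups overlap.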

How the data were processed

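The authors pooled gradient fractions, made libraries with SMART-seq v4 and Nextera XT, trimmed reads with Trim Galore 0.4.1, aligned them to GRCm38 with STAR 2.5.3a and quantified genes in Partek, per the methods and processing notes. The values deposited by the authors are FPKM per gene and library, normalized and with a lowest value of 0.01. Reads and counts were not used here, so that sampling error is unknown. Of 38 labelled samples 36 had a column, and 2 zygote samples had none. The methods name RefSeq genes, whereas the annotation columns matched Ensembl gene models.

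The FPKM were put on the log2 scale with nothing added, and limma 3.58.1 (R 4.3.3) was fitted to the 12 group means of all 36 libraries with a trended eBayes prior and 24 residual degrees of freedom. Genes whose geometric mean reached 0.1 FPKM were tested, adjusted by Benjamini-Hochberg over all 7967, and called at 0.05 with a fold change over 2. This limma fit takes the place of the Partek test of the study. The script was tested on simulated data. All members present were named. Of the other lists, some maternal complex genes and the NLR genes called were named, besides the 5 genes closest in profile. Figures were drawn with matplotlib 3.10.9. The members and lists were chosen with earlier results of these data known. Alternatives changed the added value, filter, normalization, replicate block, libraries in the fit and each library in turn.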

Additional observations from a re-analysis of the deposited data

How the results depend on the processing

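Counts of members called in polysomes moved by over 1.5 times, or from or to 0, as follows. MII against GV, with 0 called, gave 1 with 0.1 FPKM added, 2 with 1 FPKM added, 1 after quantile normalization, 1 with only the polysome libraries of the 2 groups fitted, and 1 with the two-cell M libraries removed. Zygote M against zygote, with 0 called, gave 2 with only its own libraries. Two-cell M against two-cell, with 6 called, gave 3 with 1 FPKM added, 3 after quantile normalization and 3 with only its own libraries. GV against two-cell, with 3 called, gave 1 with 1 FPKM added and 1 with a mean of at least 1 FPKM required. MII against zygote M, with 1 called, gave 0 with no filter, 0 with the replicate letter as a block and 3 with only its own libraries (Nlrp4b at 1.90 and Nlrp14 at 1.96 gained). MII against two-cell M, with 7 called, gave 4 with 1 FPKM added and 4 with the mean filter. GV against zygote stayed at 0 under every setting run. The stage effect in polysomes, with 8 called, gave 5 with the mean filter, 5 after quantile normalization and 3 without two-cell M, and the stage effect off polysomes, with 9 called, gave 3 without two-cell M. The mean filter left 6 members to test. Smaller moves were MII against two-cell M at 5 after quantile normalization, 1 of them the reversed Nlrp9c, GV against two-cell at 2 with no filter, after quantile normalization and with only its own libraries, two-cell M against two-cell at 5 with no filter and with the mean filter, and the stage effects at 6 in polysomes with 1 FPKM added and at 6 and 7 off polysomes with the mean filter and after quantile normalization. The pairs called between fractions, 1 in the fit reported, were 3 with 1 FPKM added, 4 after quantile normalization and 2 without two-cell M, all of them lower on polysomes (gained were Nlrp9c at GV in each, Nlrp14 at GV with 1 FPKM added, and Nlrp4b at zygote M and two-cell after quantile normalization). Nlrp9c in MII against two-cell M, 0.43 as reported, turned to -2.17 after quantile normalization (adjusted p = 0.0041). The causes were not tested, and the removal of two-cell M was chosen after seeing the data.

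With 1 library left out at a time, the members called ranged from 5 to 6 in two-cell M against two-cell, from 2 to 3 in GV against two-cell, from 7 to 8 in MII against two-cell M, and were 0 in each of MII against zygote M, MII against GV, zygote M against zygote and GV against zygote. They ranged from 0 to 2 for the pairs between fractions, from 0 to 1 for the interaction, from 8 to 9 for the stage effect off polysomes, and stayed at 8 for that in polysomes. Off polysomes, in a check added after seeing the data, they ranged from 4 to 9 in two-cell M against two-cell (8 as reported), from 1 to 3 in GV against two-cell (2) and from 8 to 9 in MII against two-cell M (9). Of 465 fold changes refitted with all libraries of their comparison, 430 kept their direction and call or stayed uncalled, 24 lost the call, 10 gained it and 1 reversed, and 9 changed sign. With a library left out 361 of 378 did so, 15 lost the call and 2 gained it, and 31 uncalled values changed sign.

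Whether the letters of the replicates pair the samples is not stated in the methods or labels, and they were not treated as pairs. Residuals of libraries with the same letter and fraction at different stages correlated at -0.0899 to 0.157, with a mean of 0.019. Those of the 2 fractions with the same stage and letter correlated at -0.00625 to 0.167, with a mean of 0.0756, and over 0.1 in 6 of 18. Weak correlations cannot show that samples are unpaired, so that this question stays undecided. With the letter as a block, Nlrp9c lost its call between two-cell M and two-cell (adjusted p = 0.0567, 5 members called) and in MII against zygote M (adjusted p = 0.0641, 0 called). With stage and letter as a block, 0 members had an interaction and 1 pair was called between fractions. Many values at two-cell and two-cell M lay within a few multiples of the floor of 0.01 FPKM, which limits the log2 differences there.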
